A study of Mus musculus with 5 samples.

Results

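The endothelial tight and adherens junction genes Cldn5, Ocln, Tjp1, Cldn12, Marveld2, Esam, Jam2, Cdh5 and F11r were examined in bulk RNA sequencing of GL261-bearing mouse brains. The 9 genes were chosen by name and matched by mouse symbol to the Ensembl identifiers of the count tables, which hold 55573 genes. All 9 were found, and all 9 were among the 23592 genes with enough counts to be compared between the groups. GL261 is a mouse glioma line; here it carried a luciferase/mKate2 vector and was injected into the right caudate nucleus-putamen of C57BL/6 females aged 7 to 8 weeks, and animals above a bioluminescence cutoff were kept. The UMBO group received ultrasound with microbubbles to open the blood-brain barrier, and the vehicle group received InVivoPure pH 6.5 dilution buffer, each on days 21 and 24. The right hemisphere was collected 24 h after the second session and gave 3 vehicle and 2 UMBO libraries, 1 per mouse. The study's methods describe more animals than these 5, and further libraries are not analysed here. Whether vehicle mice also received microbubbles or sham sonication is not stated in the sources used here, so ultrasound and everything given with it cannot be told apart.

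Brain endothelial cells close the gap between neighbouring cells with tight and adherens junctions, and this seal is a main part of the blood-brain barrier. In a tight junction, claudins and occludin cross the membrane and meet their counterparts on the next cell, junctional adhesion molecules sit beside them, and scaffold proteins such as ZO-1, the product of Tjp1, tie them to the actin skeleton. In the adherens junction of endothelium, VE-cadherin, the product of Cdh5, joins the cells through catenins. Several of these genes are not restricted to endothelium: Tjp1 and Cldn12 are also used by other brain cells, Ocln and Marveld2 by epithelia, and F11r and Esam by platelets, with F11r also on leukocytes.

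Total counts lay between 59736771 and 86164159 per library, and the 9 genes received between 81 and 10371 reads each. Counting error was thus small beside the spread between mice for most of them. It weighed more for Marveld2, with 81 to 142 reads, and beside the narrow spread of Cdh5 in the UMBO libraries. Levels are given as CPM, counts scaled to equal library size with edgeR's TMM method. Because each library is RNA from a whole hemisphere with its tumor, fewer cells of a type and less RNA per cell cannot be told apart. Pan-endothelial markers were present in every library, with the CPM of 12 such genes summing to between 148 and 268, so endothelial RNA was in the samples; no file assigns a read to a cell type. UMBO replicate 2 stood apart from the other libraries, with a median absolute distance of 0.645 on the log2 scale from the gene-wise center against 0.152 to 0.312 in the other 4. Its CPM summed to 437 over 8 monocyte and macrophage markers and to 442 over 10 proliferation genes, against at most 113 and 111 in any other library. Values without this library are therefore given as well. No batch is given in the labels, and nothing beyond the sample titles says how the mice were housed or processed together, so p-values measure only the spread between these libraries.

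Cldn5, F11r, Esam and Cdh5 lay higher in both UMBO libraries than in all 3 vehicle libraries. Their mean CPM with UMBO was 2.22-fold, 1.89-fold, 1.62-fold and 1.50-fold that with vehicle. Ocln, Tjp1, Cldn12, Marveld2 and Jam2 overlapped between the groups. No difference passed the threshold of 0.05 after Benjamini-Hochberg adjustment over all genes: edgeR's quasi-likelihood test called 0 of the 23592 genes, or 0%, and 39 were called by the DESeq2 Wald test, none of them a member. At an unadjusted p under 0.05 edgeR gave 4 of the 9 members, all higher with UMBO, where 5.30% of all genes were higher and 7.37%, or 1738 genes, passed in either direction. The pair of UMBO libraries exceeded all vehicle libraries for 4 of the 9 members and for 11.5% of all genes, and lay below them all for 0 members and 11.4% of all genes.

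**Figure D1:**
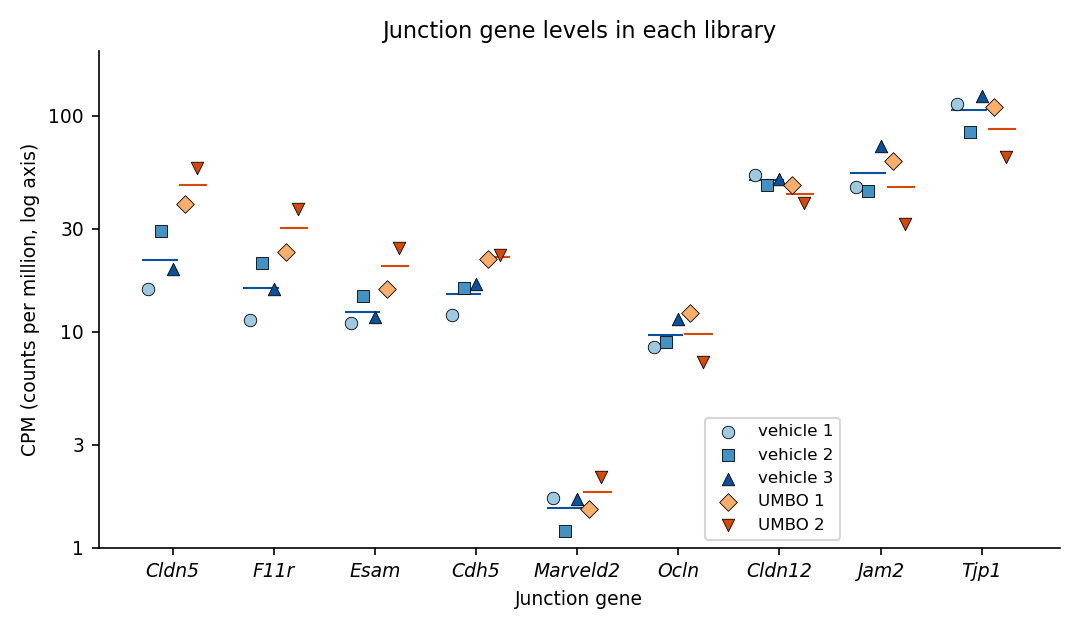
Level of each junction gene in each library, in CPM on a log axis; symbols are single libraries and short bars are the group means (vehicle left, UMBO right). For Cldn5, F11r, Esam and Cdh5 both UMBO symbols sit above all 3 vehicle symbols, and for the other 5 genes the groups overlap.

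Claudin-5, the product of Cldn5, is the main claudin of brain endothelium and seals the barrier against small molecules. Cldn5 (ENSMUSG00000041378, GRCm38 chr16:18776847-18778262, plus strand) was measured at 15.8, 29.4 and 19.6 CPM in vehicle replicates 1 to 3 and at 38.9 and 57.1 CPM in UMBO replicates 1 and 2. Both UMBO libraries lay above the highest vehicle library. The means were 21.6 ± 7.05 CPM (SD, n = 3) with vehicle and 48.0 ± 12.9 CPM (SD, n = 2) with UMBO. The log2 fold change was 1.15 (SE 0.315, 95% interval 0.38 to 1.92), with an unadjusted p = 0.0106 and an adjusted p = 0.497 from the quasi-likelihood test of edgeR. It stayed between 0.85 and 1.47 when any 1 library was left out, and was 0.85 without UMBO replicate 2. Cldn5 was the member with the largest fold change and the only one whose unadjusted p stayed under 0.05 in each of these 5 fits.

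Cldn12 encodes a claudin that is also made outside the endothelium. Cldn12 (ENSMUSG00000046798, chr5:5489537-5514958, minus strand) was measured at 53.2, 47.8 and 51.1 CPM with vehicle and at 47.8 and 39.4 CPM with UMBO. The UMBO libraries reached from the lower end of the vehicle range to below it. The log2 fold change was -0.22 (SE 0.168, 95% interval -0.63 to 0.19, unadjusted p = 0.246, adjusted p = 0.531, edgeR). The 2 claudins thus had fold changes of opposite sign, and only the interval of Cldn5 left out 0.

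Occludin and tricellulin, the products of Ocln and Marveld2, are related membrane proteins of the tight junction, and tricellulin sits where the corners of neighbouring cells meet. Ocln (ENSMUSG00000021638, chr13:100496507-100552718, minus strand) was measured at 8.51, 8.98 and 11.5 CPM with vehicle and at 12.2 and 7.27 CPM with UMBO. The 2 UMBO libraries held the highest and the lowest of the 5 values. Its log2 fold change was 0.01 (SE 0.301, 95% interval -0.72 to 0.75, adjusted p = 0.982, edgeR), and its sign depended on the library left out, from -0.44 without UMBO replicate 1 to 0.34 without UMBO replicate 2. Marveld2 (ENSMUSG00000021636, chr13:100595957-100616971, minus strand) was measured at 1.71, 1.20 and 1.68 CPM with vehicle and at 1.52 and 2.12 CPM with UMBO. Its groups overlapped, and its log2 fold change was 0.25 (SE 0.339, 95% interval -0.58 to 1.08, adjusted p = 0.693, edgeR). The estimate was 0.44 without UMBO replicate 1 and -0.01 without UMBO replicate 2.

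ZO-1, encoded by Tjp1, is the scaffold that links claudins and occludin to actin. Tjp1 (ENSMUSG00000030516, chr7:65296165-65527781, minus strand) was measured at 113, 84.0 and 123 CPM with vehicle and at 110 and 64.4 CPM with UMBO. UMBO replicate 1 lay within the vehicle range and UMBO replicate 2 below it. Its log2 fold change was -0.29 (SE 0.298, 95% interval -1.02 to 0.44, unadjusted p = 0.368, adjusted p = 0.608, edgeR), and it was 0.05 without UMBO replicate 2 and -0.75 without UMBO replicate 1.

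Esam, F11r and Jam2 encode adhesion proteins of the immunoglobulin superfamily that lie in or beside the tight junction; F11r gives JAM-A and Jam2 gives JAM-B. F11r (ENSMUSG00000038235, chr1:171437535-171464603, plus strand) was measured at 11.3, 20.8 and 15.8 CPM with vehicle and at 23.5 and 37.0 CPM with UMBO. Both UMBO libraries lay above the highest vehicle library, vehicle replicate 2. The log2 fold change was 0.92 (SE 0.324, 95% interval 0.13 to 1.71, unadjusted p = 0.0294, adjusted p = 0.497, edgeR), and 0.56 without UMBO replicate 2. Vehicle replicate 2 and UMBO replicate 2, the highest F11r library of each group, were also those with the most monocyte and macrophage marker RNA, at summed CPM of 113 and 437 against 17.2 and 36.1 in the other vehicle libraries and 80.2 in UMBO replicate 1. These libraries were also the highest of their group for Cldn5, Esam and the endothelial gene Pecam1, so the order was not particular to F11r. For Cdh5 the highest vehicle library was vehicle replicate 3. The part of monocytes and macrophages in the F11r level was not tested.

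Esam (ENSMUSG00000001946, chr9:37528078-37538319, plus strand) was measured at 11, 14.6 and 11.7 CPM with vehicle and at 15.8 and 24.4 CPM with UMBO. The groups did not overlap, but UMBO replicate 1 exceeded vehicle replicate 2 by little. This gave a log2 fold change of 0.70 (SE 0.259, 95% interval 0.06 to 1.33, unadjusted p = 0.0365, adjusted p = 0.497, edgeR), and it was 0.35 without UMBO replicate 2. Platelet markers, of which 5 of 6 were tested, summed to between 3.49 and 4.51 CPM with vehicle and to 4.75 and 8.81 CPM with UMBO, and their part in the Esam level was not tested. Jam2 (ENSMUSG00000053062, chr16:84774123-84825928, plus strand) was measured at 47.0, 44.7 and 72.1 CPM with vehicle and at 61.9 and 31.6 CPM with UMBO. Its groups overlapped, with UMBO replicate 2 the lowest of all, and the log2 fold change was -0.22 (SE 0.357, 95% interval -1.10 to 0.65, adjusted p = 0.739, edgeR).

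VE-cadherin is the cadherin of the endothelial adherens junction, and of the 9 members Cdh5 is among those most closely tied to endothelium. Cdh5 (ENSMUSG00000031871, chr8:104101625-104144511, plus strand) was measured at 11.9, 15.9 and 16.7 CPM with vehicle and at 21.8 and 22.7 CPM with UMBO. The 2 UMBO libraries lay close together and above all 3 vehicle libraries. The means were 14.9 ± 2.59 CPM (SD, n = 3) and 22.3 ± 0.662 CPM (SD, n = 2). For Cdh5 the log2 fold change was 0.58 (SE 0.211, 95% interval 0.07 to 1.10, unadjusted p = 0.0330, adjusted p = 0.497, edgeR). Unlike that of Esam and F11r, it was nearly the same without UMBO replicate 2, at 0.55, and it ranged from 0.45 to 0.68 over the 5 fits that each leave out 1 library.

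**Figure D2:**
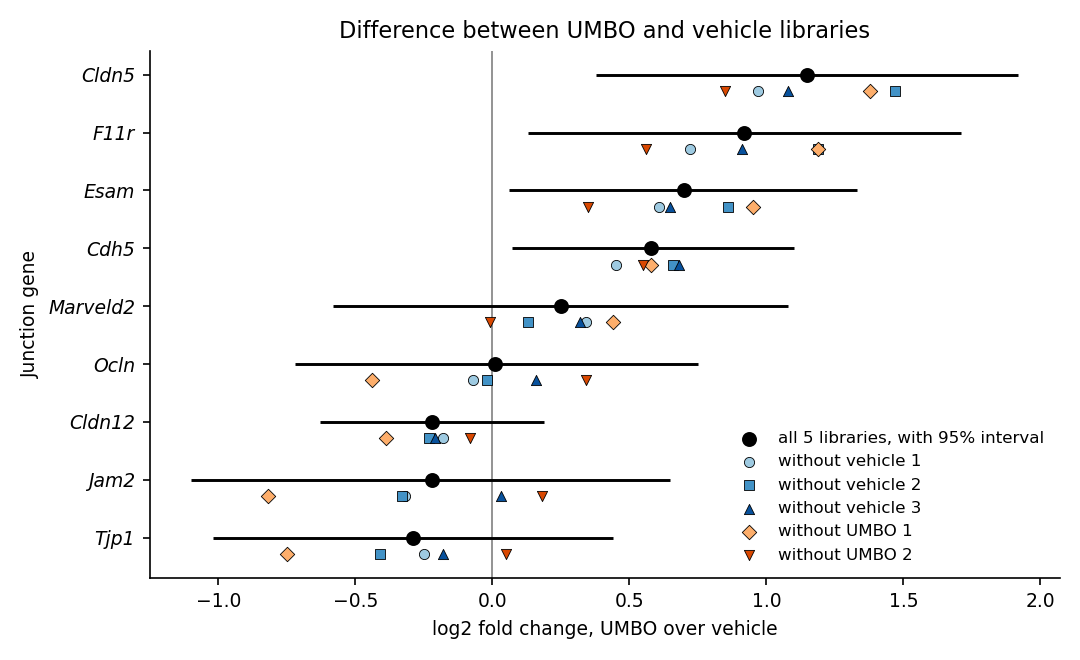
Log2 fold change of each junction gene, UMBO over vehicle, from edgeR: black points and lines are the estimate and its 95% interval with all 5 libraries, and colored symbols are the estimates with 1 library left out. The intervals of Cldn5, F11r, Esam and Cdh5 lie above 0. For Jam2, Tjp1, Ocln and, by little, Marveld2 the symbols without UMBO 1 and without UMBO 2 fall on opposite sides of 0.

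The median log2 fold change of the 9 members was 0.25, against 0.01 over all genes tested, with 6 members above 0 and 3 below. The number of members with an unadjusted p under 0.05 moved with the library left out, and so did the share of all genes. It was 1, Cldn5, when vehicle replicate 1, vehicle replicate 3 or UMBO replicate 2 was left out, where 1.28%, 1.88% and 1.86% of all genes passed. It was 3 without vehicle replicate 2, where Cdh5 no longer passed and 11.6% of all genes did. Without UMBO replicate 1 it was 5, namely Cldn5, Esam and F11r higher and Jam2 and Tjp1 lower, but 41% of all genes passed as well. In that fit Cldn5 (log2 1.38, adjusted p = 0.0393), Esam (log2 0.95, adjusted p = 0.0445) and F11r (log2 1.19, adjusted p = 0.0466) also passed after adjustment in edgeR, with UMBO replicate 2 as the lone UMBO library assumed to vary like the vehicle libraries and with 4543 genes called in all.

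Levels of different genes were compared as RPKM, the CPM per 1000 bases of annotated exon. In both UMBO libraries Cldn5 was the highest member, at 27.5 and 40.3 RPKM, while in vehicle replicates 1 and 3 it was Tjp1, at 14.4 and 15.7 RPKM, and in vehicle replicate 2 Cldn5, at 20.8 RPKM. Mean RPKM was 15.3 ± 4.97 for Cldn5, 13.6 ± 2.59 for Tjp1 and 12 ± 0.656 for Cldn12 with vehicle (SD, n = 3), so these 3 did not differ beyond their spread. With UMBO the means were 33.9 ± 9.05 for Cldn5, 11.4 ± 3.60 for F11r, 11.1 ± 4.07 for Tjp1 and 10.3 ± 1.39 for Cldn12 (SD, n = 2), and the last 3 of these lay within their spread. Ocln, at 1.72 to 2.90 RPKM, and Marveld2, at 0.355 to 0.628 RPKM, were the lowest members in that order in all 5 libraries.

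Likeness of profile was measured as the root mean square difference between centered log2 CPM values over the 5 libraries. Cldn5 and F11r were each other's nearest member, at 0.143, and Ocln and Jam2 were each other's nearest, at 0.175. The nearest member was Jam2 for Tjp1 (0.176), Tjp1 for Cldn12 (0.216), F11r for Esam (0.203), Esam for Cdh5 (0.231) and Cldn12 for Marveld2 (0.355). Among 16441 genes with a mean CPM of at least 1, those nearest to Cldn5 included Lyn (0.0673), a kinase of myeloid cells, and Fxyd1 (0.0833). Lyn was at 10.6, 20.4 and 14.0 CPM with vehicle and at 25.4 and 42.6 CPM with UMBO, which is the order of libraries seen for Cldn5. The genes nearest to Tjp1 were Fam135a (0.0263), Ift80 (0.0265) and Gfpt1 (0.0286).

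The sequences before a RefSeq transcription start are shown for Cldn5 and F11r, whose profiles were nearest to each other, and for Tjp1, whose groups overlapped. RefSeq promoter entries on GRCm38.p6 were matched for 6 of the 9 genes, and only the 250 bases before each start are printed, 5′ to 3′ on the strand of the gene. Cldn5 is at chr16:18776597-18776846 (plus strand), F11r at chr1:171437311-171437560 (plus strand) and Tjp1 at chr7:65371245-65371494 (minus strand). The Tjp1 window lies inside the gene interval given above because other GENCODE transcripts start further upstream; the nearest GENCODE start, at base 65371239, is 5 bases from the RefSeq one. Capitals mark a GC box, GGGCGG on either strand.
Cldn5: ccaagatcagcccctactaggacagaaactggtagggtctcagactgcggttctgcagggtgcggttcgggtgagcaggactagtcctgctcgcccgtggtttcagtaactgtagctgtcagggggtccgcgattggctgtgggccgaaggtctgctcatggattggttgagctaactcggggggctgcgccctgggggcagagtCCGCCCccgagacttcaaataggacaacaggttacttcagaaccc
F11r: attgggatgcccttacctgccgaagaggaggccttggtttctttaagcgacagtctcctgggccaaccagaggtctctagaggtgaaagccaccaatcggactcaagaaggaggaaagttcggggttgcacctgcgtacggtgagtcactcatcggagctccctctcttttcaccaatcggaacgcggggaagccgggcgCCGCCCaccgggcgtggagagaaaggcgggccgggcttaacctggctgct
Tjp1: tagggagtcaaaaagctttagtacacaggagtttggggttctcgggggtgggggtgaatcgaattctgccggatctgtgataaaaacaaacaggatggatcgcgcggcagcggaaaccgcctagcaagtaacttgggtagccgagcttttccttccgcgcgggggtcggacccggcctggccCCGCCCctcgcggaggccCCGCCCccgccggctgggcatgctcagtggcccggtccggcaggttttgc
The windows of Cldn5 and F11r held 1 GC box each and that of Tjp1 held 2; this motif was found in 32.7% of 32851 mouse promoter windows of the same length. GC content was 59.6%, 60.0% and 63.2%, against a median of 52.4%. None of the 3 windows held AGGAAG, a core bound by ETS factors (29.5% of all windows), TGTTTAC, a core bound by forkhead factors (3.17%), or TATAAA (12.4%), searched on both strands.

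The members' levels were next compared with endothelial RNA as a whole. All 12 pan-endothelial genes had a log2 fold change above 0, with a median of 0.56, and for 7 of the 12 the UMBO libraries did not overlap with vehicle and lay above it, against 11.5% of all genes. At an unadjusted p under 0.05 edgeR gave 3 of them: Emcn (log2 0.89), Pecam1 (log2 0.85) and Eng (log2 0.58). Pecam1, the platelet endothelial cell adhesion molecule at the lateral border of endothelial cells, was at 15.8, 24.9 and 21.5 CPM with vehicle and at 29.9 and 45.0 CPM with UMBO (SE 0.272, unadjusted p = 0.0204, adjusted p = 0.497, edgeR). Robo4 (log2 0.68) did not pass. The mean log2 level of the 12 genes was higher by 0.49 in the UMBO libraries, and the median over the list was 0.47 without UMBO replicate 2.

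Relative to that mean, Cldn5 was at 0.85, 1.29 and 0.66 with vehicle and at 1.38 and 1.85 with UMBO, in log2 units. UMBO lay above vehicle, by 0.68, with the lowest UMBO value close to the highest vehicle value (exact permutation test, 2-sided, p = 0.2, adjusted p = 0.386 over the 9 members). Cdh5 was at 0.44, 0.40 and 0.43 with vehicle and at 0.54 and 0.52 with UMBO, a difference of 0.11 (exact permutation p = 0.1). Its level thus followed that of the other endothelial genes closely in all 5 libraries. With 10 groupings of the libraries, 0.1 is the smallest p this test can give.

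F11r, with a difference of 0.44, and Esam, with 0.18, overlapped between the groups once set against the pan-endothelial genes. Cldn12 was at 2.60, 1.98 and 2.04 with vehicle and at 1.67 and 1.32 with UMBO. Both UMBO libraries thus lay below all vehicle libraries, by 0.71 (exact permutation p = 0.1, adjusted p = 0.386). The share of all genes whose groups lay apart on this scale was not determined. Tjp1 (-0.81), Jam2 (-0.76), Ocln (-0.51) and Marveld2 (-0.25) overlapped, with exact permutation p between 0.3 and 0.6. The reference itself was higher by 0.49 with UMBO, so a gene of unchanged level lies lower with UMBO on this scale. Without the reference the log2 fold changes were -0.22 for Cldn12, with overlapping groups, -0.29 for Tjp1, -0.22 for Jam2, 0.01 for Ocln and 0.25 for Marveld2. Several of these genes are also made outside endothelium, so the differences are not levels per endothelial cell. With 8 barrier endothelial genes as the reference in place of the pan-endothelial ones, all 9 differences kept their sign.

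**Figure D3:**
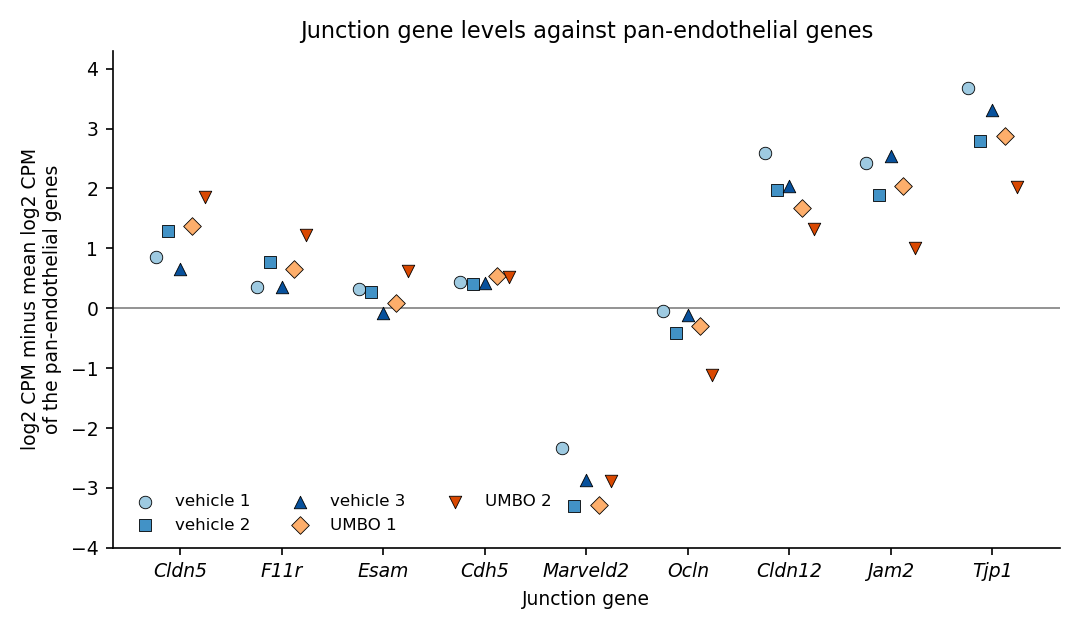
Level of each junction gene relative to the mean of 12 pan-endothelial genes, as a difference of log2 CPM, in each library. Cldn5 and Cdh5 in both UMBO libraries lie above all vehicle libraries, Cldn12 in both lies below, and Cdh5 varies least, between 0.40 and 0.54.

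The other genes of the 2 junction types were taken from lists of names. Of 28 other tight junction genes, 26 were tested; 9 had a log2 fold change above 0 and 17 below. Their median was -0.25, but -0.01 without UMBO replicate 2 and -0.52 without UMBO replicate 1. In both UMBO libraries 7 of the 26 lay below all vehicle libraries and 2 above, where 11.4% and 11.5% of all genes did. Among these 7, Cldn3, Cldn23 and Marveld3 were near the floor, at 0.661 CPM or less in every library. At an unadjusted p under 0.05 edgeR gave 2 of the 26, near the 7.37% of all genes, with Lsr higher and Magi1 lower. Lsr, which encodes the tricellular junction protein angulin-1, was at 4.12, 6.33 and 5.35 CPM with vehicle and at 8.94 and 13.5 CPM with UMBO (log2 1.09, SE 0.302, unadjusted p = 0.0112, adjusted p = 0.497, edgeR). Its exons share 43.6% of their bases with an antisense gene, and without strand information the reads of both cannot be told apart.

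Magi1, a junction scaffold gene, was at 132, 99.9 and 149 CPM with vehicle and at 94.8 and 61.6 CPM with UMBO (log2 -0.70, unadjusted p = 0.0475, edgeR). Both UMBO libraries lay below the lowest vehicle library. The scaffold gene Patj (log2 -0.66), the claudin of myelin Cldn11 (log2 0.30), Jam3 (log2 0.47), Cgnl1 (log2 -0.12) and Ybx3 (log2 1.18) did not pass. Ybx3, which encodes a nucleic acid binding partner of ZO-1, was at 137 CPM in UMBO replicate 2 and at 31.8 to 49.7 CPM in the other 4 libraries, so its fold change was that of 1 library.

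Of 20 other adherens junction genes, 7 lay above 0 and 13 below. The median was at log2 -0.09, at 0.06 without UMBO replicate 2 and at -0.39 without UMBO replicate 1, and Pecam1 alone had an unadjusted p under 0.05. The catenins of the VE-cadherin complex were at log2 -0.04 for Ctnnb1, 0.30 for Ctnna1, 0.35 for Ctnnd1 and 0.01 for Jup. Ctnnb1, for example, was at 417, 381 and 440 CPM with vehicle and at 488 and 314 CPM with UMBO. Catenins are made by most cells of the brain, and for Ctnnd1 61.2% of the exon bases are shared with a readthrough gene. Ptprb, the endothelial phosphatase that acts on VE-cadherin, was at log2 0.00, with 64.2 and 28.6 CPM in the 2 UMBO libraries on either side of vehicle at 40.7, 38.2 and 60.6 CPM. Nectin2 (log2 0.86), Ctnna2 (log2 -0.74), Vezt (log2 -0.42) and Afdn (log2 -0.13) did not pass.

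Among 8 genes of barrier endothelium, transporters for the most part, the median log2 fold change was 0.30, with 5 above 0 and 3 below; it was 0.00 with UMBO replicate 1 left out, 0.17 with vehicle replicate 1 left out and 0.42 with UMBO replicate 2 left out. Abcg2, an efflux transporter, was at 17.7, 22.3 and 20.0 CPM with vehicle and at 26.7 and 31.5 CPM with UMBO (log2 0.54, unadjusted p = 0.0274, edgeR). Ly6c1 had a log2 fold change of 1.39 (unadjusted p = 0.0449, edgeR) that rested on 83.5 CPM in UMBO replicate 2, against 12.8 to 32.6 CPM elsewhere. Slc2a1, the glucose transporter of the barrier (log2 0.42), and Itm2a (log2 0.31) did not pass. The transporter genes Slco1a4 (log2 -0.09), Slco1c1 (log2 -0.26) and Abcb1a (log2 -0.05), named after their values were seen, were the 3 below 0, and all 3 were above 0 without UMBO replicate 2.

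**Figure D4:**
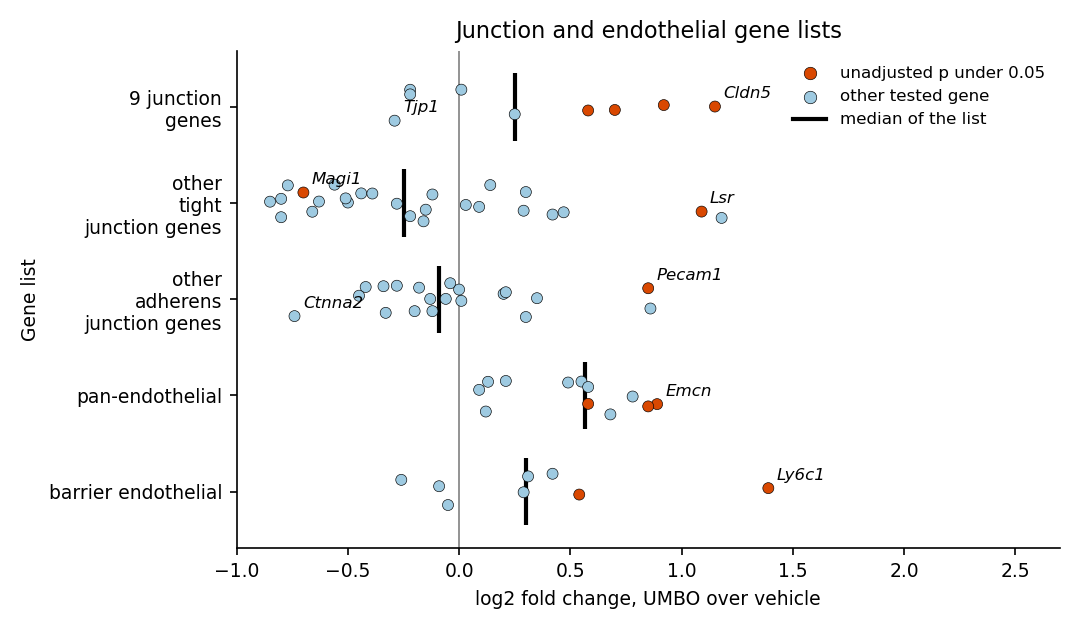
Log2 fold change, UMBO over vehicle, of every tested gene in 5 lists, with the list median as a black bar and genes with an unadjusted p under 0.05 in orange. The medians are 0.25 for the 9 junction genes, -0.25 and -0.09 for the other tight and adherens junction genes, and 0.56 and 0.30 for the pan-endothelial and barrier endothelial genes; Pecam1 is in the adherens and the pan-endothelial list.

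Other cell types also differed between the libraries. The median log2 fold change was 2.52 over 8 monocyte and macrophage markers, but 0.04 without UMBO replicate 2, and 2.14 over 10 proliferation genes, or 0.93 without it. It was 0.69 over microglia, 0.65 over platelet, 0.26 over pericyte and 0.26 over leptomeningeal markers, and 0.56, 0.19, 0.20 and 0.15 without that library. It was -0.54 over choroid plexus, -0.35 over neuron, -0.10 over astrocyte and -0.04 over oligodendrocyte markers, and -0.14, -0.13, 0.23 and 0.00 without it. Choroid plexus epithelium also builds tight junctions. Its 8 markers summed to between 828 and 880 CPM in 4 libraries and to 507 CPM in UMBO replicate 2. Most of that sum was Ttr, at 712 to 766 CPM in the 4 libraries and 456 CPM in UMBO replicate 2. The summed astrocyte and neuron markers were lowest there too, at 2170 and 2740 CPM, against at least 3620 and 5170 CPM in the other libraries. Single markers did not all follow these sums. In UMBO replicate 2 Aldh1l1 was at its highest, 89.1 CPM, and Tubb3, at 300 CPM, lay above vehicle replicate 3, at 278 CPM. UMBO replicate 2 was also the library in which Ocln, Tjp1, Cldn12 and Jam2 were lowest. The part of these cells in the members' levels was not tested.

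The members' fold changes followed their exonic length. Ordered from the shortest, Cldn5 with 1416 exonic bases had log2 1.15, F11r with 2663 had 0.92, Esam with 2867 had 0.70, Marveld2 with 3382 had 0.25, Cdh5 with 4203 had 0.58, Ocln with 4222 had 0.01, Cldn12 with 4228 had -0.22, Jam2 with 6045 had -0.22 and Tjp1 with 7811 had -0.29. Spearman's rho across the 9 genes was -0.98, and -0.72 without UMBO replicate 2; the genes share the same libraries and are not independent replicates. Across 23579 genes with a length rho was -0.30, and -0.08 without UMBO replicate 2. All genes were split by length into 5 bins of equal size. In the shortest bin, up to 1369 bases, the median log2 fold change was 0.31, and in the longest bin, from 6230 bases, it was -0.26. In each library the level of a gene was then set against its mean over the vehicle libraries. The trend was steepest in UMBO replicate 2, with a median of 0.53 in the shortest and -0.50 in the longest bin. In UMBO replicate 1 these medians were 0.06 and -0.06. Vehicle replicate 2 was at 0.21 and -0.17, and vehicle replicate 1, with the opposite slope, at -0.10 and 0.08. Vehicle libraries are centered on their own mean here, so opposite slopes among them are partly set by that centering. Across the 12 pan-endothelial genes rho was 0.01.

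A fit was therefore added, chosen with these values in view, in which the trend on exonic length in each library entered as an offset. The log2 fold change of Cldn5 was then 0.96 in edgeR's quasi-likelihood test, with an unadjusted p of 0.00487. F11r was at 0.82, Esam at 0.60 and Cdh5 at 0.60, with unadjusted edgeR p of 0.0244, 0.0331 and 0.0245. The groups stayed apart for these 4 genes, with UMBO above, at 5.32 and 5.56 against 4.15 to 4.80 length-corrected log2 CPM for Cldn5. Cldn12 separated the other way by little, at 5.56 and 5.34 with UMBO against 5.57 to 5.73 with vehicle (unadjusted p = 0.206, edgeR). The share of all genes whose groups stayed apart after the correction was not determined. Tjp1 was at -0.09, Jam2 at -0.12, Ocln at 0.02, Cldn12 at -0.20 and Marveld2 at 0.19. The fold changes of Cldn5 and Tjp1, the shortest and the longest member, thus moved toward each other. The same 4 members had an unadjusted p under 0.05, where 8.63% of all genes did. The order by length remained only in part. The shortest members, Cldn5, F11r and Esam, still lay above Ocln, Cldn12, Jam2 and Tjp1. Cdh5, with 4203 bases, lay level with Esam, although Ocln and Cldn12 are nearly as long as Cdh5, with 4222 and 4228. Tjp1, the longest, lay above Jam2 and Cldn12. The median of the other tight junction genes stayed at -0.25, that of the other adherens junction genes moved from -0.09 to 0.13, and that of the pan-endothelial genes was 0.60, with 6 of 12 at an unadjusted p under 0.05. No gene passed after adjustment in this edgeR fit either, and 2035 genes had an unadjusted p under 0.05.

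**Figure D5:**
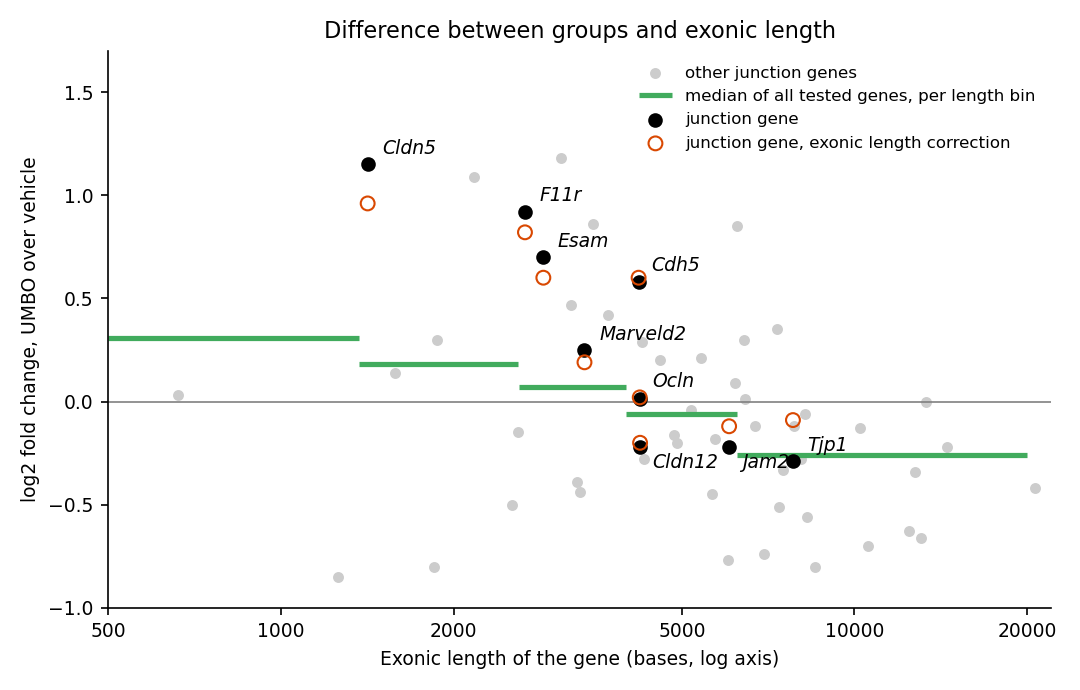
Log2 fold change, UMBO over vehicle, against exonic length on a log axis; black points are the 9 junction genes, open orange circles the same genes after the length correction, grey points other junction genes and green bars the median of all tested genes in each length bin. The fold changes of the junction genes go from 1.15 at 1416 bases to -0.29 at 7811 bases, and after the correction from 0.96 to -0.09.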

How the data were processed

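RNA was sequenced from the right hemisphere of 3 vehicle-treated and 2 UMBO-treated GL261-bearing mice, grouped and numbered by the titles of the deposited samples. Libraries were made with a SMARTER mRNA-Seq kit. Per the submitters' processing notes and the study's methods, the authors aligned the reads to GRCm38 with STAR 2.7.2a. The deposited values are raw counts for each gene in each library, not normalized; the notes also list DESeq2. The annotation release and the strand setting are not given in the sources used here. Symbols, positions and exonic lengths were taken from GENCODE M21 on the same build (55480 of 55573 genes matched; genes without a symbol held at most 0.00173% of a library's counts), and promoter sequences from RefSeq on GRCm38.p6. No member shares exon bases with another annotated gene.

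Counts were filtered with filterByExpr, scaled by TMM and tested with edgeR 4.0.16 (R 4.3.3), quasi-likelihood test, Benjamini-Hochberg threshold 0.05, over 23592 genes; the common dispersion was 0.1181. Log2 CPM used a prior count of 2. Standard errors and 95% intervals used the moderated degrees of freedom. No 2 libraries agreed within sampling noise. The scripts were tested on simulated counts. The precision of each comparison is set mainly by the 5 mice, since 59736771 or more counts per library leave little counting error for most members.

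The junction genes and the gene lists around them were chosen with earlier results of these data known. Named genes were every member, junction partners listed by name, the genes nearest in profile, and the 4 genes with the smallest unadjusted p of each list, printed for the junction and endothelial lists; some of these are not reported here. Alternatives covered scaling, filtering, DESeq2 1.42.0, the replicate number as a block and each library left out. The corrections for exonic length and for GC content (lowess trends per library) were chosen after seeing the data.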

Additional observations from a re-analysis of the deposited data

How the results depend on the processing

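The 9 fold changes kept their direction under DESeq2's size factors, library size alone as the scaling, the stricter filter, the length correction and the length and GC correction. In each of these fits 4 members had an unadjusted p under 0.05. The share of all genes that did was 7.52%, 8.04%, 7.11%, 8.63% and 8.61%, in the same order. Without a filter on low counts 4100 genes had an unadjusted p under 0.05, and in the DESeq2 Wald test 2738 did, with 39 called after adjustment; Ocln was at -0.01 in both. Leaving out 1 library moved the number of members with an unadjusted p under 0.05 between 1 and 5, their median log2 fold change between 0.13 and 0.44, the genes called after adjustment between 0 and 4543 and those with an unadjusted p under 0.05 between 296 and 10165. Fold changes that turned over these fits ranged from -0.44 to 0.34 for Ocln, -0.82 to 0.18 for Jam2, -0.75 to 0.05 for Tjp1, -0.01 to 0.44 for Marveld2, -0.47 to 0.14 for Cgnl1, -0.42 to 0.24 for Ctnnb1, -0.07 to 0.65 for Ctnnd1, -0.11 to 0.09 for Jup, -0.73 to 0.47 for Ptprb, -0.01 to 0.56 for Itm2a, -0.96 to 0.43 for Slco1a4, -0.95 to 0.19 for Slco1c1 and -0.75 to 0.41 for Abcb1a. Relative to the pan-endothelial genes Marveld2 ranged from -0.48 to 0.00 and Esam from -0.09 to 0.45. The cause was not tested.

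The length correction and the length and GC correction gave 0.08 and 0.05 for Cgnl1, 0.10 and 0.13 for Vezt, 0.03 and 0.02 for Ctnnb1, 0.32 and 0.33 for Ptprb, 0.20 and 0.21 for Afdn, 0.01 and 0.05 for Slco1a4 and 0.02 and 0.04 for Abcb1a, each on the other side of 0 from the fit without correction. Library size alone gave 0.06 for Ctnnb1, 0.04 for Abcb1a and 0.09 for Ptprb, the stricter filter 0.02 for Ptprb, and no filter and DESeq2 -0.02 for Jup.

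The replicate numbers are shared by the groups, but no label says that a number marks a shared litter, cage or day. With the replicate block, which leaves vehicle replicate 3 without a partner, 2337 genes were called after adjustment and 6134 had an unadjusted p under 0.05; Cldn5 (log2 1.13, adjusted p = 0.00232), F11r (log2 0.94, adjusted p = 0.00816) and Cdh5 (log2 0.69, adjusted p = 0.0483) were among those called, while Cgnl1 was at 0.08, Jup at -0.06, Abcb1a at 0.03 and Ptprb at 0.12. With the replicate block and the length and GC correction together these counts were 2038 and 5523, Cldn5 was at 0.96 (adjusted p = 0.00615) and F11r at 0.85 (adjusted p = 0.0161), and Jam2 was at 0.07, Cgnl1 at 0.24, Vezt at 0.13, Ctnnb1 at 0.03, Ptprb at 0.46, Slco1a4 at 0.07, Abcb1a at 0.12 and Afdn at 0.20. The deviations of same-numbered libraries from their group means correlated at 0.453 and 0.760, and with 2 UMBO libraries these mirror each other.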
